A study of Mus musculus with 8 samples.

Results

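The genes described here are 44 mouse genes of fatty acid synthesis, uptake, esterification, lipolysis and oxidation, listed by name as members of the textbook pathway. All 44 had a probe on the arrays and all 44 passed the filter on dim probes, out of 16377 named genes tested. The measurements are of 8 tumours of 4T1, a cell line from a mouse mammary carcinoma. In the PRH group (n = 4) the cells had been infected with an adenovirus carrying PRH, and in the control group (n = 4) with an empty adenovirus, each for 24 h at a multiplicity of infection of 50. Cells of both groups were then placed in the no. 3 fat pad of female BALB/c mice aged 6 to 8 weeks, and tumours were taken on day 22. Each group holds tumours from mice numbered 1, 2, 3 and 5. The promoter that drove PRH in the virus is not given in the sources used here, and 4T1 is 1 cell line, so the tumours share their malignant cells while fat, vessels, immune cells and stroma come from each host.

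Fatty acid synthesis starts when citrate is split to acetyl-CoA, which is carboxylated to malonyl-CoA and built into palmitate by fatty acid synthase. Chains are then elongated, desaturated, activated to acyl-CoA and esterified to triglyceride and phospholipid, and lipases release them again from lipid droplets. For oxidation, carnitine palmitoyltransferases carry acyl chains into mitochondria, where chain-length-specific dehydrogenases and the trifunctional protein shorten them. Malonyl-CoA blocks the entry step, which keeps synthesis and oxidation from running at full rate together. The mammary fat pad is rich in adipocytes, which express many of the same genes strongly.

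PRH is the homeodomain protein of Hhex, and the study addressed how tumours intended to carry more of it differ in expression. Hhex had scaled log2 signals of -1.71, -1.46, -1.79 and -1.72 on the PRH-labelled arrays, against -0.54, -0.33, -0.69 and -0.78 on the control arrays, in the order of mouse numbers 1, 2, 3 and 5 that is kept throughout. The probe therefore read lower in every PRH-labelled tumour than in any control tumour (difference -1.09, SE 0.149, limma adjusted p = 0.00686). This goes against the direction the label implies, and whether the probe reads the virally delivered transcript is not known, so the tumours are called PRH-labelled below and every direction rests on that label. A scaled log2 signal is log2 of an array's processed spot intensity minus that array's 75th percentile of it, a difference is PRH minus control on this scale, and a call is a limma adjusted p under 0.05 over all 34543 items tested.

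The arrays as a whole differed between the groups. On the raw signal, the 75th percentile averaged 722.4 ± 41.2 on the PRH-labelled arrays and 1094 ± 131 on the control arrays (SD, n = 4 each; exact two-sided permutation p = 0.0286, the smallest that 4 against 4 allows). Probes well above background made up 73.2% ± 0.773 on the PRH-labelled arrays and 66.7% ± 2.3 on the control arrays (SD, n = 4 each; exact permutation p = 0.0286). In the position numbers of the file headers, each group has 1 value of the first number to itself, so position on the slide and group cannot be told apart. All epithelial markers listed (12 of 12) and 13 of 14 endothelial markers were well above background on all 8 arrays. The labels differ on the material, since the design text has RNA from each tumour and the extraction protocol has endothelial isolates. The summed scaled signal of the epithelial markers ran from 423.1 to 517.7 on PRH-labelled arrays and from 314.5 to 406.9 on control arrays. Most of this sum is Krt18, called higher (0.52) in 1 of 5 scalings, while Krt8 was lower without overlap (-0.44, not passed) and 9 of the 12 markers overlapped between the groups. The endothelial sum ran from 49.01 to 56.05 on PRH-labelled arrays and from 21.05 to 55.93 on control arrays. Of 92 markers of 8 cell types, 82 were tested and 9 were called, namely Krt18, Kdr, Mylpf and Tnni2 higher and Mrc1, Lyz2, Pdgfra, Pdgfrb and Xdh lower. As shares, 4.88% of the tested markers were higher and 6.1% lower, beside 17.2% and 8.67% of all tested items. Among named genes the shares were 10.6% and 12.9%. Under a block for mouse number these 9 stayed called and 5 more were higher, namely Aqp7, Ehf, Cd3e, Pvalb and Lalba (adjusted p 0.0101 to 0.0271). In bulk RNA, fewer cells of a type and less RNA per cell cannot be told apart.

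Of the 44 genes, 4 were higher in the PRH-labelled tumours and 11 were lower, while 29 did not pass, in the fit without a block for mouse number. With that block 3 were higher and 8 lower, beside 26.9% and 8.54% of all tested items. Without the block, the 4 higher genes were Ppara, Ppard, Cpt1b and Acadvl, and the 11 lower ones were Fasn, Elovl5, Acsl1, Acsl3, Acsl5, Gpam, Lpin1, Pnpla2, Acadl, Hadhb and Ehhadh. Of these, Ppara, Fasn, Elovl5 and Acsl5 were not called with the block. As shares, 9.09% of the 44 genes were called higher and 25% lower, beside 17.2% higher and 8.67% lower among all tested items, and 10.6% higher and 12.9% lower among named genes. The median difference was -0.19 over the 44 genes, 0.29 over all tested items and -0.021 over named genes. The 2 groups of arrays did not overlap for 16 of the 44 genes, 4 higher and 12 lower in PRH-labelled tumours, beside 20.1% of all tested items higher and 11.3% lower.

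The split between the directions depended on how the arrays were brought to one scale. Centring each array on its median moved the median of all tested items to -0.18, and 1 of the 44 genes was then called higher and 22 lower, beside 8.47% and 22% of all items. Quantile normalization gave 5 higher and 10 lower, beside 12% and 13.5% of all items. Normexp background correction gave 4 and 12 (10.4% and 13.2% of all items), and the authors' deposited values gave 3 and 11 (10.6% and 12.7%). With arrays centred on 7 spike-in probes, limma called 0 of the 44 genes and 1 of all items, a lower one (0.00289%), while 1 of the 44 genes higher and 6 lower reached an unadjusted p under 0.05. With the mouse number as a blocking term 3 genes were higher and 8 lower, beside 26.9% and 8.54% of all items, and Fasn, Elovl5, Ppara and Acsl5 lost their calls. Across the main scaling and the first 4 of these alternatives 9 genes kept their call, namely Cpt1b higher and Fasn, Acsl1, Acsl3, Acsl5, Lpin1, Pnpla2, Acadl and Ehhadh lower, beside 5.8% of all items higher and 7.75% lower. With no filter on dim probes 4 genes were higher and 5 lower, beside 12.4% and 4.81% of all items, and Fasn, Elovl5, Acsl5, Gpam, Lpin1 and Acadl lost their calls (adjusted p 0.0558 to 0.0707). When each array was left out in turn, 5 genes passed every time, namely Cpt1b and Acadvl higher and Acsl3, Pnpla2 and Hadhb lower, beside 10.5% of all items higher and 3.7% lower. The count of called genes ran from 6, without PRH 3 or control 3 (20.1% and 20.2% of all items called), to 17 without control 1 (33.2%). Of the 44 genes, 3 met both of these conditions, Cpt1b higher and Acsl3 and Pnpla2 lower, beside 5.6% of all items higher and 3.66% lower. Neither condition checks the probe. Acsl3 and Pnpla2 had 1 tested probe each, as had 32 of the 44 genes, and the second tested probe of Cpt1b differed by 0.25. Over the 44 genes, 14 other probes were tested, 8 with the sign of the probe used and 6 with the opposite sign.

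**Figure D1:**
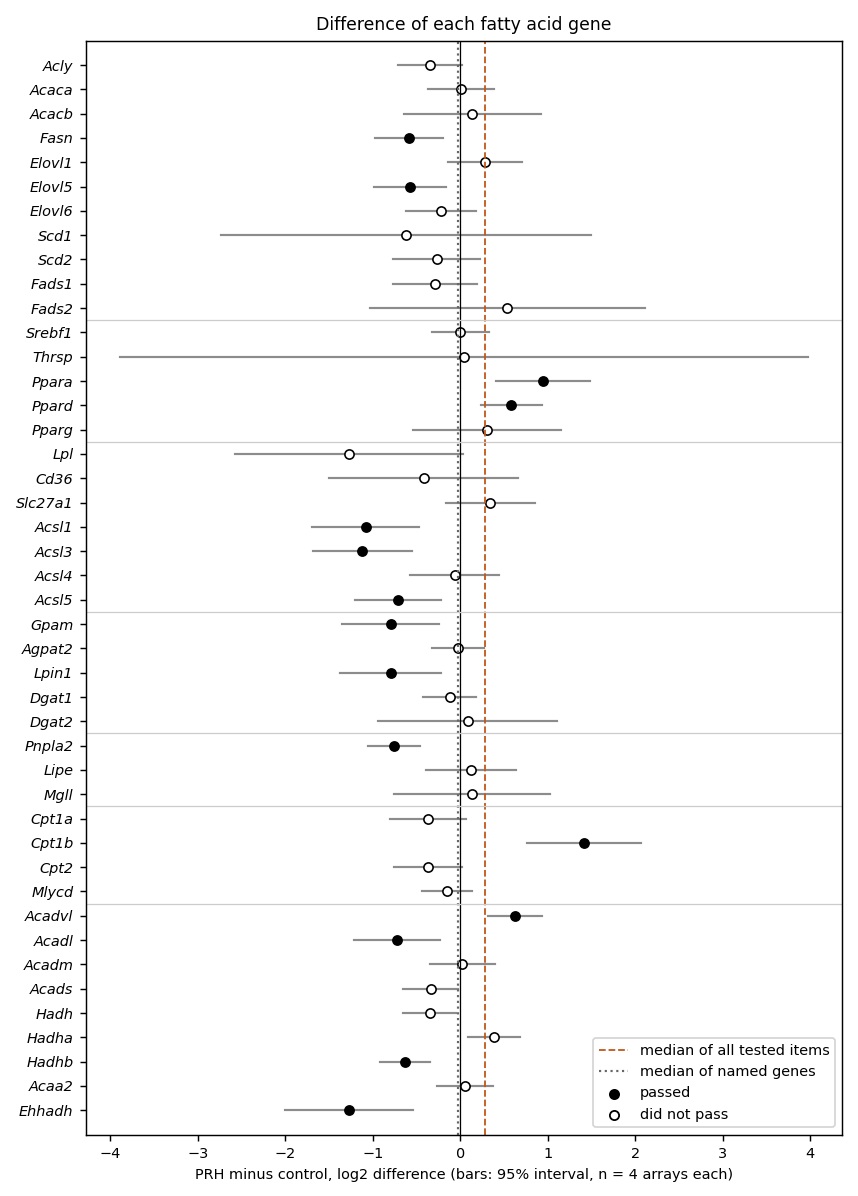
Each of the 44 genes has a row in role order with its difference (PRH minus control, log2, x axis) as a point and its 95% interval as a bar (n = 4 arrays each); filled points passed, open points did not, and the dashed and dotted lines are the medians of all tested items (0.29) and of named genes (-0.021). The 4 filled points right of 0 include Cpt1b at 1.41, the 11 left of 0 include Ehhadh at -1.28, and the widest bars belong to Thrsp and Scd1.

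In the synthesis group, 2 of 11 genes were called, both lower, and the median difference of the group was -0.27. Fasn, the multifunctional synthase that builds palmitate, had scaled log2 signals of -0.50, 0.01, -0.24 and -0.47 in PRH-labelled tumours, against 0.54, 0.16, 0.30 and 0.16 in control tumours. Every PRH-labelled tumour was below every control tumour, with PRH 2 nearest to the controls. Fasn fell by 0.59 (SE 0.168, 1.505-fold, limma adjusted p = 0.0373). It passed in 1 of 8 fits that left out an array, the one without PRH 2, and the others gave adjusted p values of 0.0519, without control 1, to 0.0988, without PRH 5. A block for mouse number gave an adjusted p of 0.0621. Of 8 markers of the milk-secreting epithelium, 3 were detected well enough to test, and they did not move together: Xdh was called lower (-1.14), Btn1a1 (-0.62, SE 0.403) and Lalba (1.10, SE 0.450) did not pass. Their part in the Fasn result was not tested.

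Elovl5, an elongase of polyunsaturated fatty acids, had signals of 1.59, 1.81, 1.50 and 1.53 in PRH-labelled tumours and 1.97, 2.19, 2.59 and 1.98 in control tumours. The groups did not overlap, and control 3 was the highest. Elovl5 fell by 0.57 (SE 0.177, 1.49-fold, limma adjusted p = 0.0485). It did not pass after quantile normalization (adjusted p = 0.0571), under a block for mouse number (0.0614), or in 7 of 8 fits that left out an array (0.0666 to 0.114), and it passed without control 1.

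The promoter windows of both genes are shown because they are the 2 called synthesis genes, with the letters of CCAAT (either strand, so also ATTGG) and of the E-box CACGTG in capitals. These are the 250 bases upstream of the annotated start, from RefSeq on build GRCm38.p6, at chr11:120824548-120824797 on the minus strand for Fasn and chr9:77917115-77917364 on the plus strand for Elovl5.
Fasn: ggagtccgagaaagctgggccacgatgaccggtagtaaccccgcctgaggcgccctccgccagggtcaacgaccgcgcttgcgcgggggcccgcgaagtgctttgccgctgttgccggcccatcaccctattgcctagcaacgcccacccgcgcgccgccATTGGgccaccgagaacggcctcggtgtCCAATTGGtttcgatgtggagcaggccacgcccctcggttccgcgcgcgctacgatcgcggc
Elovl5: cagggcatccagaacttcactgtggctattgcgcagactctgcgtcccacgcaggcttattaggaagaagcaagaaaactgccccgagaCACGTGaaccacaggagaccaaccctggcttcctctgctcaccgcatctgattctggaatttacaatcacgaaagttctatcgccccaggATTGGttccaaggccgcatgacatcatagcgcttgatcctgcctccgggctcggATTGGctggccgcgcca
Fasn holds 3 matches to CCAAT and Elovl5 holds 2, with 1 CACGTG in Elovl5. Of all 32851 RefSeq windows of this length, 33.8% hold CCAAT and 6.02% hold CACGTG on either strand. Of the 36 listed genes that have a window in the table, 18 hold CCAAT, 25 hold the GC box CCGCCC (32.7% of all windows), 4 hold CACGTG, 2 hold TCACNCCAC (1.05% of all windows; Acsl1 and Ehhadh), and 1, Cd36, holds TAATTG, the core read by many homeodomains (7.17% of all windows). Of the 3 Fasn matches, 2 lie on opposite strands and share letters, in the run CCAATTGG. The matches describe letters, not bound sites.

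The entry enzymes of synthesis did not pass. Acly, which splits citrate to acetyl-CoA, had 3.78, 4.04, 3.84 and 3.91 in PRH-labelled tumours and 4.00, 4.16, 4.58 and 4.24 in control tumours, a difference of -0.35 (SE 0.158, limma adjusted p = 0.145). Its groups overlapped at PRH 2 and control 1, and its other tested probe differed by 0.31, the opposite sign. Acaca, the cytosolic acetyl-CoA carboxylase, had 2.62, 2.98, 2.82 and 2.50 in PRH-labelled tumours and 2.82, 2.52, 2.93 and 2.64 in control tumours, with the groups mixed throughout. Its difference was 0.0038 (95% confidence interval -0.37 to 0.38), while its other 2 tested probes differed by -0.45 and -0.23. Acacb, the mitochondrial outer-membrane carboxylase, differed by 0.14 (SE 0.337).

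Scd1, the main stearoyl-CoA desaturase, had 1.35, 0.86, 0.58 and -0.13 in PRH-labelled tumours and 4.06, -0.52, 0.63 and 0.99 in control tumours. The control 1 tumour stood far above all others, and the remaining values of the 2 groups overlapped. The difference was -0.62 with an SE of 0.912, and 0.30 without control 1. Among the remaining desaturases and elongases, Scd2 differed by -0.27, Fads1 by -0.29, Fads2 by 0.54 with an SE of 0.677, Elovl6 by -0.22 and Elovl1 by 0.28. Each of these intervals included 0, and their limits ran from -1.03 to 2.11 for Fads2 and from -0.62 to 0.18 for Elovl6.

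**Figure D2:**
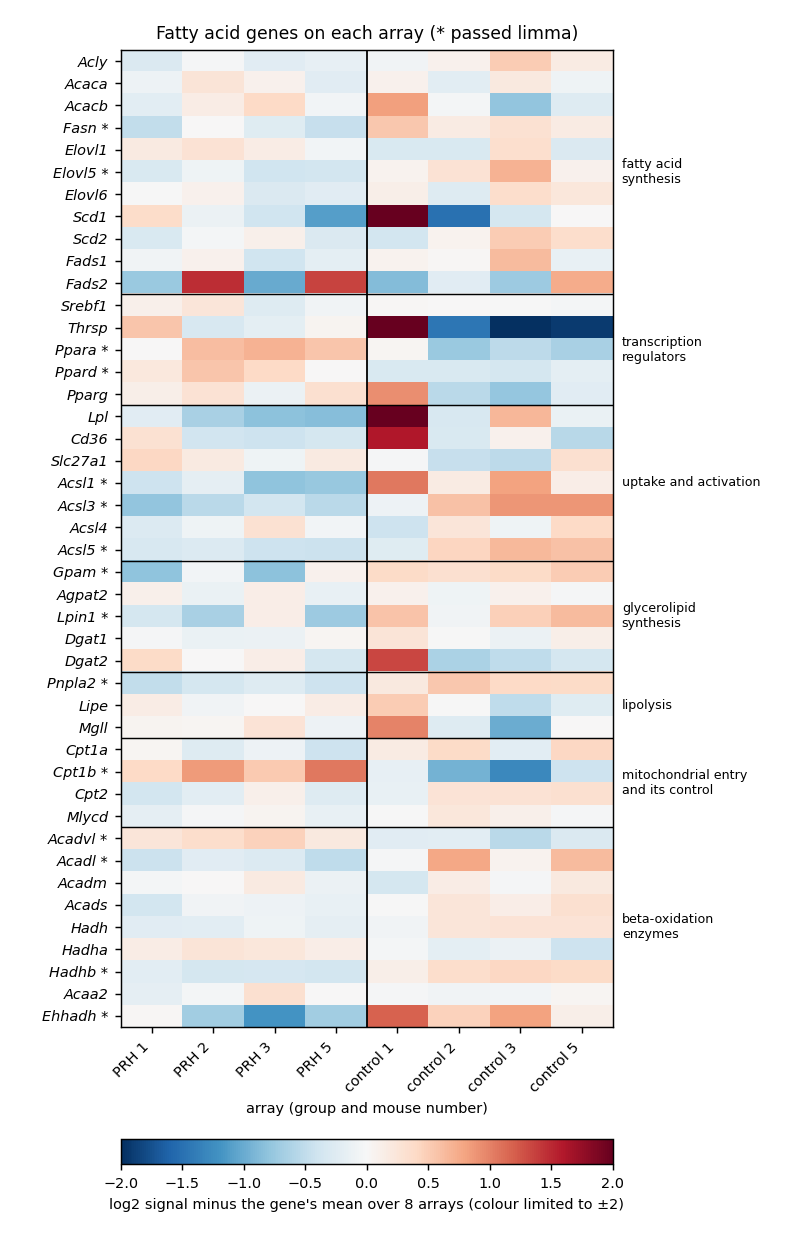
Heat map of the 44 genes (rows, by role) on the 8 arrays (columns, PRH-labelled left of the line, control right of it); colour is the log2 signal minus the gene's mean over the 8 arrays, limited to 2 either way, and stars mark genes that passed. Pnpla2 and Hadhb are blue on all 4 PRH-labelled arrays and red on all 4 control arrays, while Scd1, Thrsp and Lpl are darkest red on control 1 (4.06, 0.92 and 2.46 before centring).

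The transcription regulators held 2 called genes of 5, both higher. Ppara, the nuclear receptor that drives hepatic fatty acid oxidation genes, had 0.21, 0.82, 0.90 and 0.76 in PRH-labelled tumours and 0.23, -0.55, -0.33 and -0.45 in control tumours. PRH 1 and control 1 lay side by side, so the groups overlapped, and the other 3 tumours of each group were well apart. Ppara rose by 0.95 (SE 0.232, 1.93-fold, limma adjusted p = 0.0226). Its adjusted p was 0.111 after median centring, 0.465 with the authors' deposited values, 0.181 for the mean of its probes and 0.0525 under a block for mouse number, and it passed in 2 of 8 fits that left out an array, without PRH 1 and without control 1 (0.00618 without control 1, up to 0.0641 without control 5). A second tested probe of Ppara differed by 1.00 with an SE of 0.881.

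Ppard, a broadly expressed receptor of the same family, had 2.73, 3.07, 2.91 and 2.53 in PRH-labelled tumours and 2.21, 2.21, 2.16 and 2.33 in control tumours. All PRH-labelled tumours were higher, and the control tumours lay close together. Ppard rose by 0.58 (SE 0.149, 1.499-fold, limma adjusted p = 0.0255), with an adjusted p of 0.682 after median centring. It passed without PRH 5 and without control 1, and in the other 6 fits without an array its adjusted p was 0.0545 to 0.0678.

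Srebf1, whose SREBP-1c product activates lipogenic genes, had -1.35, -1.20, -1.71 and -1.52 in PRH-labelled tumours and -1.43, -1.44, -1.45 and -1.48 in control tumours. The PRH-labelled values lay on both sides of the narrow control range. Its difference was 0.00087 with a 95% confidence interval of -0.33 to 0.33, and it was -0.46 after median centring, -0.28 after quantile normalization and -0.22 with the authors' deposited values. Pparg, the adipocyte-determining receptor, had -0.75, -0.58, -0.98 and -0.54 in PRH-labelled tumours and 0.07, -1.41, -1.64 and -1.10 in control tumours. Control 1 was the highest of all 8 for Pparg, and the 3 other controls were the lowest. Thrsp, a thyroid-hormone-responsive lipogenic protein, had -4.18, -5.05, -4.93 and -4.67 in PRH-labelled tumours and 0.92, -6.18, -7.11 and -6.64 in control tumours, and was well above background on 4 PRH-labelled and 1 control array. Its difference of 0.044 had an SE of 1.69.

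Among the 7 uptake and activation genes, 3 were lower, all of them long-chain acyl-CoA synthetases, and the median difference was -0.71. These enzymes join a free fatty acid to CoA, the step before any further use of it. Acsl3, found on the endoplasmic reticulum and lipid droplets, had -1.69, -1.44, -1.26 and -1.43 in PRH-labelled tumours and -1.0, -0.31, -0.01 and -0.01 in control tumours. No values overlapped, and control 1 was the control nearest to the PRH-labelled tumours. Acsl3 fell by 1.12 (SE 0.244, 2.18-fold, limma adjusted p = 0.0151), and its adjusted p was 0.00157 to 0.0458 with 1 array left out.

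Acsl1, the major isoform of adipocytes, liver and heart, had 0.02, 0.26, -0.36 and -0.32 in PRH-labelled tumours and 1.49, 0.60, 1.25 and 0.58 in control tumours. The groups did not overlap, and controls 1 and 3 were the highest. Acsl1 fell by 1.08 (SE 0.263, 2.11-fold, limma adjusted p = 0.0219), and its second probe fell by 1.21 (adjusted p = 0.0242 in the fit of all probes). Leaving out PRH 3, PRH 5 or control 3 took its adjusted p to 0.0539, 0.0610 and 0.0540.

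Acsl5, an isoform of mitochondria and endoplasmic reticulum, had 2.65, 2.70, 2.55 and 2.54 in PRH-labelled tumours and 2.72, 3.40, 3.62 and 3.55 in control tumours. The 4 PRH-labelled values lay within a narrow band just under control 1, and the 3 other controls were far above it. Acsl5 fell by 0.71 (SE 0.212, 1.64-fold, limma adjusted p = 0.0431). Its adjusted p was 0.00196 without control 1, 0.0815 to 0.111 without any other array, and 0.0548 under a block for mouse number. Acsl4, which prefers arachidonate, differed by -0.064 (95% confidence interval -0.58 to 0.45), and the fatty acid transporter Slc27a1 by 0.34 (SE 0.221).

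Lpl, the lipase that frees fatty acids from circulating lipoproteins, had -0.10, -0.52, -0.70 and -0.73 in PRH-labelled tumours and 2.46, -0.20, 0.79 and -0.01 in control tumours. Control 1 was far above the rest, and PRH 1 lay above control 2. The difference of -1.27 (SE 0.562) did not pass (limma adjusted p = 0.136), and a second probe also differed by -1.27. Cd36, a scavenger receptor that takes up long-chain fatty acids, had -1.33, -2.01, -2.05 and -1.98 in PRH-labelled tumours and -0.03, -1.93, -1.54 and -2.19 in control tumours, with tumour 1 the highest of each group. Its difference was -0.42 (SE 0.465).

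In glycerolipid synthesis, 2 of 5 genes were lower. Lpin1, a phosphatidate phosphatase that also acts as a nuclear coactivator, had -2.12, -2.41, -1.63 and -2.49 in PRH-labelled tumours and -1.20, -1.84, -1.29 and -1.13 in control tumours. PRH 3 was above control 2, so the groups overlapped. Lpin1 fell by 0.80 on its brightest probe (SE 0.247, 1.74-fold, limma adjusted p = 0.0494), but its other tested probe differed by 0.68 and the mean of its probes gave an adjusted p of 0.872. It passed without PRH 3 and without control 2, and its adjusted p was 0.0841 to 0.123 without any other array.

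Gpam, the mitochondrial acyltransferase that adds the first acyl chain to glycerol-3-phosphate, had -5.82, -5.06, -5.83 and -4.92 in PRH-labelled tumours and -4.63, -4.69, -4.62 and -4.50 in control tumours. All PRH-labelled tumours were lower, but the probe was dim, well above background on 2 PRH-labelled and 4 control arrays. Gpam fell by 0.80 (SE 0.240, limma adjusted p = 0.0450), a size that rests on 2 PRH-labelled arrays near background. It was -0.29 after normexp (adjusted p = 0.0761) and -1.44 after quantile normalization. Its adjusted p was 0.0514 to 0.108 in 7 of 8 fits without an array, and it passed without PRH 5. Agpat2, Dgat1 and Dgat2, which add the later acyl chains, differed by -0.029, -0.12 and 0.085, with intervals of -0.33 to 0.27, -0.42 to 0.18 and -0.94 to 1.11.

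Of the 3 lipolysis genes, Pnpla2 was lower and the other two did not pass. Pnpla2 encodes adipose triglyceride lipase, the first lipase of the droplet. Its signals were 1.54, 1.68, 1.78 and 1.62 in PRH-labelled tumours, against 2.23, 2.57, 2.43 and 2.42 in control tumours. The groups were separated by a gap wider than the spread within either one. Pnpla2 fell by 0.76 (SE 0.128, 1.69-fold, limma adjusted p = 0.00786), and its adjusted p stayed between 0.00274 and 0.0289 with 1 array left out. Lipe, hormone-sensitive lipase, differed by 0.12 (95% confidence interval -0.39 to 0.64), and Mgll, monoglyceride lipase, by 0.13 (-0.76 to 1.02).

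At entry into mitochondria, 1 of 4 genes was called. Cpt1b, the muscle-type carnitine palmitoyltransferase of the outer membrane, had -2.47, -2.02, -2.35 and -1.81 in PRH-labelled tumours and -3.04, -3.82, -4.16 and -3.28 in control tumours. All PRH-labelled tumours were higher. Cpt1b rose by 1.41 (SE 0.281, 2.66-fold, limma adjusted p = 0.0116), with an adjusted p of 0.00525 to 0.0363 when 1 array was left out. The size depended on the background correction, with a rise of 0.55 (1.46-fold) after normexp and of 0.66 (1.59-fold) with the authors' deposited values. Its second tested probe differed by 0.25 (adjusted p = 0.453 in the fit of all probes), so the probes of this gene did not give the same size. The skeletal muscle markers, whose tissue uses this isoform, had a summed scaled signal of 19.02 to 30.23 on PRH-labelled arrays and 10.19 to 29.69 on control arrays, and 2 of 12 were called, Mylpf (1.31) and Tnni2 (0.73), both higher. That share of 16.7% stands beside 17.2% of all tested items and 10.6% of named genes called higher. Differences were positive for 10 of these 12 markers and negative for 2. Their part in the Cpt1b result was not tested.

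Cpt1a, the liver-type isoform present in most tissues, had 1.85, 1.55, 1.71 and 1.39 in PRH-labelled tumours and 1.97, 2.19, 1.59 and 2.22 in control tumours. Control 3 fell among the PRH-labelled tumours. Its difference was -0.37 (SE 0.187, limma adjusted p = 0.187), and its other tested probe differed by 0.18. Cpt2, the inner-membrane enzyme, differed by -0.37 (SE 0.168), and Mlycd, which removes malonyl-CoA, by -0.15 (95% confidence interval -0.44 to 0.14).

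The 9 beta-oxidation enzymes held 1 higher and 3 lower genes, and their median difference was -0.34. Acadvl, the very long chain acyl-CoA dehydrogenase of the inner membrane, had 4.03, 4.14, 4.24 and 3.98 in PRH-labelled tumours and 3.56, 3.58, 3.25 and 3.49 in control tumours. Every PRH-labelled tumour was higher. Acadvl rose by 0.63 (SE 0.133, 1.55-fold, limma adjusted p = 0.0138), and after median centring its adjusted p was 0.504.

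Acadl, the long chain dehydrogenase of the matrix, had 1.88, 2.08, 2.04 and 1.80 in PRH-labelled tumours and 2.29, 3.09, 2.39 and 2.94 in control tumours. The groups did not overlap, and controls 2 and 5 were the highest. Acadl fell by 0.73 (SE 0.212, 1.66-fold, limma adjusted p = 0.0405), passing without control 1 (0.0168) and without control 3 (0.0443), with 0.0690 to 0.105 in the other 6 fits. Acadm, for medium chains, differed by 0.020 (95% confidence interval -0.35 to 0.39). Acads, for short chains, differed by -0.34 without overlap of the groups (limma adjusted p = 0.101).

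Hadha and Hadhb encode the alpha and beta subunits of the mitochondrial trifunctional protein, which carries out the last 3 steps of the cycle for long chains. Hadhb had 2.85, 2.70, 2.73 and 2.69 in PRH-labelled tumours and 3.18, 3.41, 3.47 and 3.44 in control tumours. Hadha had 2.35, 2.45, 2.43 and 2.34 in PRH-labelled tumours and 2.16, 2.00, 2.09 and 1.78 in control tumours. The groups did not overlap for either subunit, and they were ordered in opposite ways. Hadhb fell by 0.63 (SE 0.123, 1.55-fold, limma adjusted p = 0.0110), with an adjusted p of 0.0034 to 0.0375 when 1 array was left out and of 0.0633 with the authors' deposited values. The Hadha difference of 0.38 (SE 0.129) did not pass (limma adjusted p = 0.0638). It was 0.48 after quantile normalization, where it passed (0.0416), it passed among probes well above background on all arrays (0.0461), and it was -0.081 after median centring.

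The 2 subunit genes lie head to head. Their windows are described because their differences in the main scaling had opposite signs, although only that of Hadhb passed. In RefSeq on GRCm38.p6 the Hadhb window is chr5:30155003-30155252 on the plus strand and the Hadha window is chr5:30154981-30155230 on the minus strand, so they share 228 bases. Capitals mark CCGCCC, found in this sequence as its reverse complement.
Hadhb: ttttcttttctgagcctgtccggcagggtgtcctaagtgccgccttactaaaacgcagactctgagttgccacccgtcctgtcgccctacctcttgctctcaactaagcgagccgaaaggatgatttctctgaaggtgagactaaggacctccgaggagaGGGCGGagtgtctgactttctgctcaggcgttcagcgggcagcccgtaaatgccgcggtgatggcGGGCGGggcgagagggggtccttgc
The Hadhb window holds 2 matches to CCGCCC.

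Ehhadh, the bifunctional enzyme of peroxisomal beta-oxidation, had -3.94, -4.67, -5.16 and -4.66 in PRH-labelled tumours and -2.79, -3.50, -3.17 and -3.85 in control tumours. All PRH-labelled tumours were lower, with PRH 1 close to control 5. Ehhadh fell by 1.28 (SE 0.315, 2.42-fold, limma adjusted p = 0.0230), and it passed in 3 of 8 fits that left out an array (0.0277 to 0.0585 over the 8). It failed without PRH 2, 3 or 5 and without control 2 or 3. Hadh, the short chain hydroxyacyl-CoA dehydrogenase, differed by -0.35 without overlap of the groups (limma adjusted p = 0.0841), and Acaa2, a matrix thiolase, by 0.055 (95% confidence interval -0.27 to 0.38).

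Ratios between 2 genes on the same array do not depend on how the arrays were scaled by a single factor. The 4 pairs given here were chosen after their values were seen, so they are descriptions without a test. Both the level of a ratio and its difference between groups depend on the probes, and only the difference is read. The log2 ratio of Hadhb to Hadha was 0.50, 0.25, 0.31 and 0.35 in PRH-labelled tumours and 1.02, 1.41, 1.37 and 1.66 in control tumours, a difference of -1.01. That of Acadl to Acadvl was -2.15, -2.07, -2.20 and -2.18 in PRH-labelled tumours and -1.27, -0.49, -0.86 and -0.55 in control tumours, a difference of -1.36. In both pairs the PRH-labelled tumours lay in a band narrower than that of the control tumours and entirely below it.

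The log2 ratio of Acsl3 to Acsl4 was -5.65, -5.59, -5.80 and -5.61 in PRH-labelled tumours and -4.82, -4.80, -4.15 and -4.65 in control tumours, a difference of -1.06. That of Cpt1b to Cpt1a was -4.32, -3.57, -4.06 and -3.21 in PRH-labelled tumours and -5.02, -6.01, -5.75 and -5.50 in control tumours, a difference of 1.78. The second tested probes of Cpt1b and Cpt1a differed by 0.25 and 0.18, so the difference of this ratio rests on the probes used. Median centring cannot change these ratios. With the probes used, the 4 ratios also kept separate groups after quantile normalization, after normexp and with the authors' values. Background correction changed their size, with differences of -0.67 for Hadhb to Hadha and 0.80 for Cpt1b to Cpt1a after normexp.

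**Figure D3:**
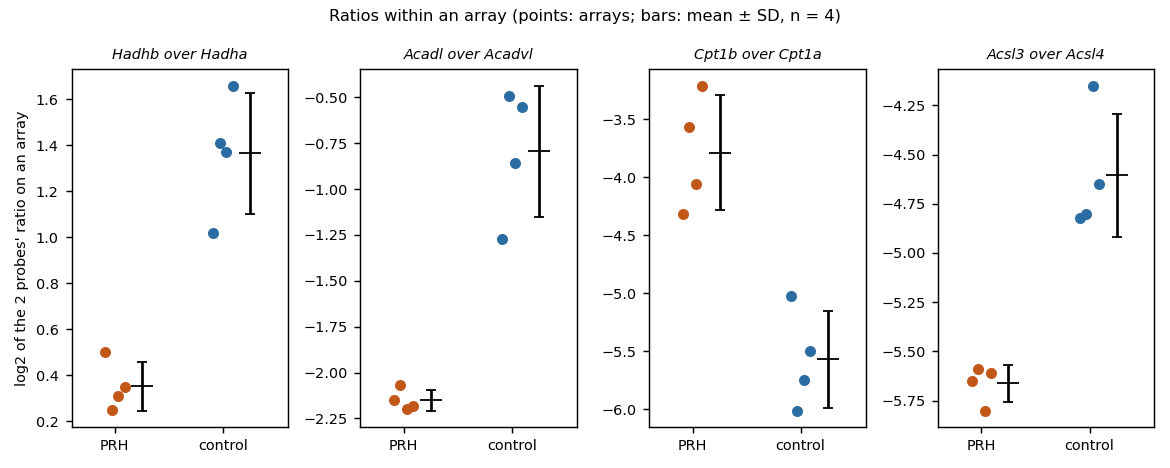
Log2 ratio of the probes of 2 genes on the same array (y axis) for 4 gene pairs, with 1 point an array, PRH-labelled arrays left of control arrays, and bars for the mean ± SD (n = 4). The Hadhb to Hadha ratio is 0.25 to 0.50 in PRH-labelled tumours and 1.02 to 1.66 in control tumours, and the groups are separate in each pair.

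One tumour, control 1, stood apart for the genes that adipocytes express most. Summed over the adipocyte markers, the scaled signal was 9.72 to 13.3 on PRH-labelled arrays, and on control arrays it was 105.9 for control 1 and 3.68 to 13.1 for the other 3. Adipoq, which encodes the adipocyte hormone adiponectin, ran from -2.78 to -1.42 in PRH-labelled tumours and from -6.34 to -1.50 in control tumours 2, 3 and 5, and was 2.43 in control 1. Of the 12 adipocyte markers 10 were tested, and limma called 0 of them between the groups, with 0 at an unadjusted p under 0.05. Control 1 was the highest of the 8 tumours for 13 of the 44 genes and for 7 of the 10 tested adipocyte markers. It exceeded the mean of the other 3 controls by more than 1 on the log2 scale for 8 of the 44 genes, with at least 7.05 for Thrsp, which was not well above background in those 3, 3.69 for Scd1, 2.27 for Lpl, 1.86 for Cd36, 1.83 for Dgat2, 1.46 for Pparg, 1.41 for Mgll and 1.19 for Acacb. Shares of all tested items for these counts are not given here, so the counts do not set either list apart from other genes. The summed scaled signal of the lymphocyte markers was also highest in control 1, at 49.3, against at most 19.1 on any other array. The B cell gene Cd79b, at 4.07 in control 1 and -2.78 to -1.62 elsewhere, carried much of it, while Cd3e, Cd4, Cd8a and Ncr1 were highest on other arrays.

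**Figure D4:**
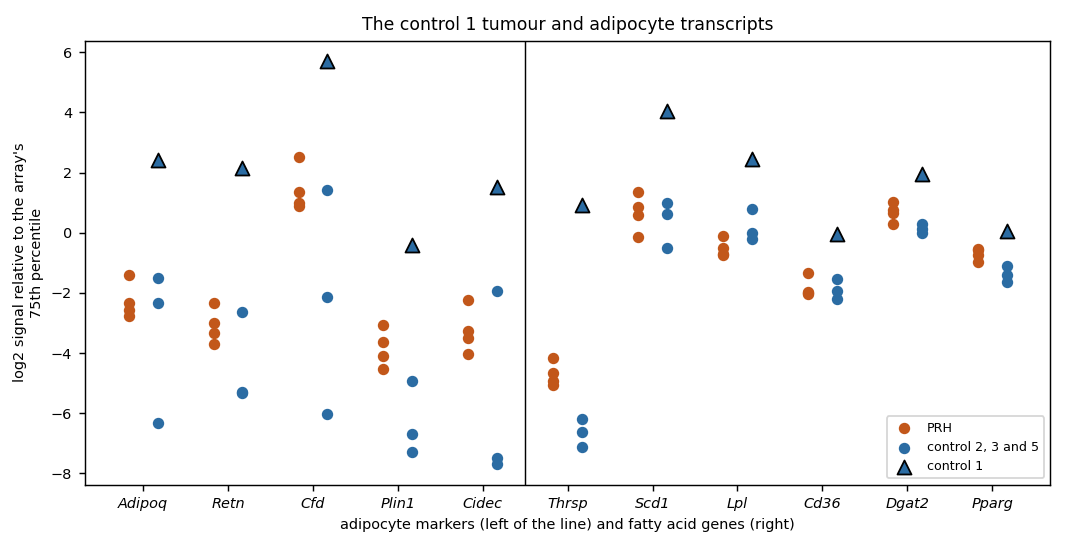
Scaled log2 signal (y axis) of 5 adipocyte markers, left of the line, and 6 fatty acid genes, right of it, with 1 point a tumour: PRH-labelled tumours as orange circles, control 2, 3 and 5 as blue circles to their right, and control 1 as a triangle. Control 1 is the highest tumour for each gene drawn, with 2.43 for Adipoq and 4.06 for Scd1. The genes drawn were chosen after their values were seen. Over the whole lists, control 1 was highest for 7 of 10 tested adipocyte markers and 13 of the 44 genes.

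Without control 1, 17 of the 44 genes were called, 7 higher and 10 lower, beside 19.4% of all tested items higher and 13.8% lower. New calls were Pparg and Hadha higher and Cpt2 and Hadh lower (Thrsp, also counted, is set aside below), and Fasn, Gpam and Lpin1 lost theirs. Pparg then differed by 0.67 (limma adjusted p = 0.0311), Hadha by 0.44 (0.0327), Cpt2 by -0.48 (0.0392) and Hadh by -0.43 (0.0173). Thrsp was well above background on 0 of the 3 remaining control arrays and passed the filter only through the 4 PRH-labelled arrays, so its call as higher supports nothing. The Thrsp mean in PRH-labelled tumours was 2.67-fold above the dimmest signals counted as above background on those controls. Control 1, left out here, was at 0.92, above every PRH-labelled tumour, so this fold does not compare the groups. Scd1 and Cd36 differed by 0.30 and 0.048 without this tumour and Lpl by -0.71 (limma adjusted p = 0.107). Beyond leaving out that tumour, the part of adipocyte RNA in the other genes' calls was not tested.

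Brightness also moved with the difference. Across named genes sorted into 10 equal classes by mean signal, the median difference was 0.79 in the dimmest class, 0.46 and 0.21 in the next 2, between -0.25 and -0.064 in the following 5, -0.082 in the ninth and 0.083 in the brightest. The dim genes Gpam and Ehhadh fell although the medians of their classes were 0.79 and 0.46, while Cpt1b, which rose by 1.41, sat in a class with a median of 0.21. Fasn, at -0.59, sat in a class with a median of -0.25 in which 22.7% of genes were called lower. The part of brightness in the individual calls was not tested.

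**Figure D5:**
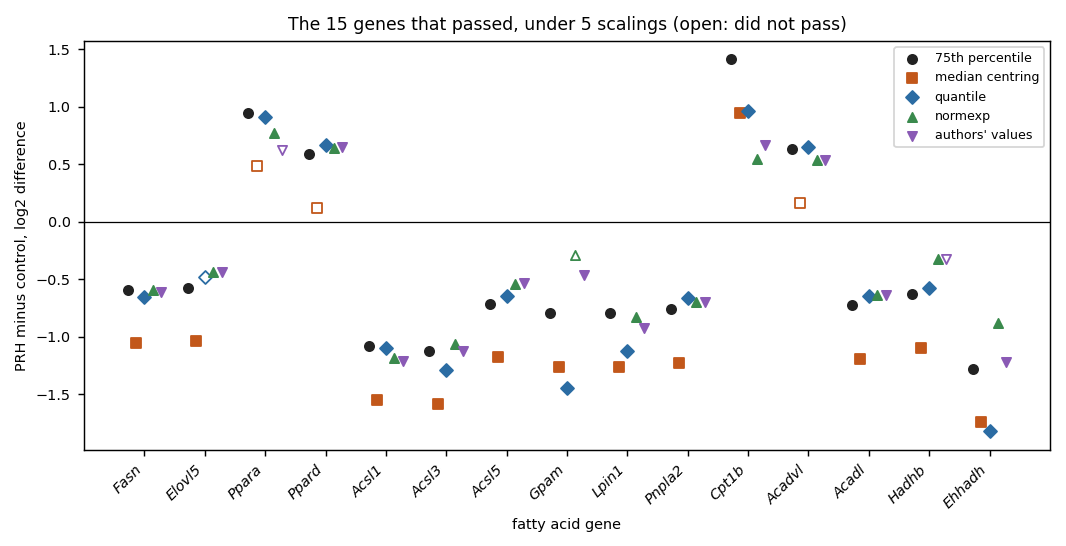
Difference (PRH minus control, log2, y axis) of the 15 called genes under 5 scalings, each with its own marker, open where the gene did not pass. The signs of all 15 are the same in the 5 scalings, the squares of median centring lie below the circles of the 75th percentile for every gene, and Ppara, Ppard, Acadvl, Elovl5, Gpam and Hadhb have an open marker.

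Of 110 further genes of lipid metabolism that are not among the 44, 105 were tested, 9 were higher and 10 lower. These shares, 8.57% and 9.52%, stand beside 17.2% and 8.67% of all tested items, and 10.6% and 12.9% of named genes. In the list of other synthesis genes, 23 of 25 were tested, with 2 higher and 2 lower. Me1, malic enzyme, which supplies NADPH for synthesis, fell by 1.08 (SE 0.183, limma adjusted p = 0.00803), and Oxsm, the mitochondrial ketoacyl synthase, fell by 0.79. Mcat, the mitochondrial malonyl transferase that works with Oxsm, rose by 0.63, and the desaturase family member Fads6 rose by 1.62 (SE 0.146, limma adjusted p = 0.00686).

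All 34 other oxidation genes were tested, with 2 higher and 5 lower. Abcd3, a peroxisomal acyl-CoA transporter, fell by 0.52, with its call kept in 3 of 5 scalings and in 1 of 8 fits without an array. The mitochondrial carnitine-acylcarnitine carrier Slc25a20 fell by 0.57, the matrix thioesterase Acot2 by 0.63 and the uncoupling protein Ucp3 by 0.94. Hsd17b10, a matrix dehydrogenase, rose by 0.58.

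In the other glycerolipid list, 15 of 16 genes were tested. Gpat2 (0.75) and Lpin3 (0.45) were higher, and the CDP-diacylglycerol synthase Cds1 (-0.96) and the lysophospholipid acyltransferases Lpcat3 (-0.51) and Lpcat1 (-0.46) were lower. Gpat2 kept its call in 1 of 5 scalings and Lpcat3 in 3. All 18 other lipolysis and droplet genes were tested, and Plin3, a droplet coat protein, was the 1 called gene (0.52), with its call kept in 2 of 5 scalings and in 1 of 8 fits without an array. In the other uptake and activation list, 15 of 17 genes were tested and 2 were called, both higher, the fatty acid transport protein Slc27a4 (0.85, SE 0.135, limma adjusted p = 0.0074) and the acyl-CoA synthetase Acsf2 (0.89, SE 0.169, limma adjusted p = 0.0103). Each of the 2 lost its call in 1 of the 5 scalings. Of the 19 further genes called, 4 kept their call in all 5 scalings and all 8 fits without an array. Under a block for mouse number, Mcat, Acot2, Lpin3, Lpcat1 and Plin3 lost theirs (adjusted p 0.0608 to 0.0688), and 3 further genes gained one. Slc27a4 and Acsf2 moved in the direction opposite to the 3 called Acsl genes.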

How the data were processed

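Total RNA of 8 samples, tumours per the design text and endothelial isolates per the extraction protocol, was hybridised to 1-colour (Cy3) Agilent mouse arrays, 50 ng RNA a sample per the labels' protocols. The deposited scanner files give each spot's linear intensity from Agilent Feature Extraction 10.7.3.1, with the design placed on mm9, per the file headers (the submitters' processing notes name version 9.1). Other deposited columns used are the software's flags for control spots, outliers and spots well above background, per the file headers. The authors also deposited a table of linear intensities that the labels say were normalised in R; its background correction is unknown. All 8 arrays lay on 1 slide with 1 scan, and no spot was saturated.

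Processed signals were put on the log2 scale and the 75th percentile of each array, over 59305 non-control spots, was subtracted, with the spots of a probe averaged. Probes well above background on at least 4 of 8 arrays were kept, 39463 of 55681. Names came through accessions from a RefSeq gene table of GRCm38.p6 (25869 of 26392 curated mRNA accessions matched). The brightest probe stood for a gene, which left 34543 items, 16377 of them named genes. The group difference was fitted in limma 3.58.1 (R 4.3.3), two-sided, with Benjamini-Hochberg adjustment over all items and a threshold of 0.05. Alternatives were median centring, quantile normalization, normexp with an offset of 50 (on median spot and background signals, where mean signals had been planned), the authors' values, spike-in centring, no filter, well above background on all arrays, the mean of a gene's probes, the mouse number as a block, and leaving out each array. On simulated data of 34543 items, the test recovered 50% of 100 changes of 2 on the log2 scale and 22% of 100 changes of 1. Only 200 items were changed there, while 5938 higher and 2996 lower were called in the data. The adjustment was therefore stricter in the simulation, and its shares do not give the power of the test here.

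The mouse number follows the second position number in the file headers and is shared by 1 tumour of each group. Same-numbered arrays deviated together from their group means (r = 0.20, 0.42, 0.65 and 0.26 for mice 1, 2, 3 and 5), so by the preset rule the numbers pair the arrays. Correlations of differently numbered arrays are not given here, and mouse number and the second position number cannot be told apart. Blocked values are given where a call changed. The main counts, differences and adjusted p values are from the fit without this block. The p-values rest on the spread among these 8 tumours, and 4 arrays a group limit the precision. The 44 genes, the further lists and the pairs of genes were chosen with earlier results of these data known. Named genes are Hhex, all 44 listed genes, and up to 3 called genes by smallest p in each direction of each further list; in the other oxidation list 4 called lower are named, and some genes that the rule gives are not reported here. Adipoq and the other genes drawn with it, Krt8, Btn1a1, Lalba, Cd79b, the lymphocyte genes, the genes gained under the block and the gene pairs were named after their values were seen. Promoter windows were taken from a RefSeq table that holds 36 of the 44 genes, and motifs were searched on both strands.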

Additional observations from a re-analysis of the deposited data

Results flagged for a closer look

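Among the 88 combinations of a gene and a group, 6 held a tumour whose gap to its nearest neighbour, as a share of the group's whole range, exceeded Dixon's critical value, and chance alone marks about 1 in 20 such groups of 4. Control 1 was the tumour in 4 of the 6. Thrsp was 0.92 in control 1, against -7.11 to -6.18 in the other 3 controls, where it was not well above background, and Dgat2 was 1.96 in control 1, against at most 0.28 in the other 3. Control 1 was the lowest for Cpt2, at 0.78 against 1.21 to 1.26, and for Hadh, at 2.44 against 2.76 to 2.78. Elovl1 was 4.62 in control 3, against 3.98 to 4.01 in the other controls. Cd36 was -1.33 in PRH 1, against -2.05 to -1.98 in the other PRH-labelled tumours.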

How the results depend on the processing

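Of the 15 calls, 3 (Acsl3, Pnpla2 and Cpt1b) held in the 5 scalings and in all 8 fits that left out an array, and none of the 15 changed sign in any setting. Called genes among the 44 numbered 1 higher and 22 lower after median centring, 4 higher and 5 lower with no filter, and 0 and 0 with spike-in centring. With the replicate block, 3 were higher and 8 lower (all items 9283 higher, 26.9%), markers 9 higher, and Fasn, Elovl5, Ppara and Acsl5 were the 4 calls lost. Without 1 array, 2 to 7 were higher and 4 to 10 lower. Of the 110 further lipid genes 105 were tested, and 1 was higher and 38 lower after median centring, beside 8.47% and 22% of all items. After quantile normalization 16 were lower (13.5% of all items), with the authors' values 16 (12.7%) and after normexp 19 (13.2%). Higher counts in those scalings are not reported here. With spike-in centring limma called 0 higher and 0 lower, while 4 higher and 6 lower reached an unadjusted p under 0.05. Without 1 array, 3 to 15 of the further genes were higher and 3 to 22 lower. The 82 tested markers had 1 higher and 11 lower after median centring, beside 8.47% and 22% of all items. They had 0 and 0 with spike-in centring (limma, with 3 higher and 5 lower at an unadjusted p under 0.05), and 1 to 6 higher and 2 to 6 lower without 1 array. All tested items, 5938 higher and 2996 lower in the main analysis, gave 2926 and 7612 after median centring, 3581 and 4566 after normexp, 3666 higher with the authors' values, 4649 lower after quantile normalization, 0 and 1 with spike-in centring, and 4152 to 6688 higher and 1536 to 4779 lower without 1 array.

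Signs turned only for genes that did not pass in the main analysis. After median centring these were Acaca -0.46, Acacb -0.33, Elovl1 -0.18, Srebf1 -0.46, Thrsp -0.42, Pparg -0.16, Slc27a1 -0.12, Dgat2 -0.38, Lipe -0.34, Mgll -0.34, Acadm -0.45, Hadha -0.081 and Acaa2 -0.41. After quantile normalization they were Acacb -0.045, Srebf1 -0.28, Thrsp -0.65, Agpat2 0.051 and Lipe -0.23. After normexp they were Acacb -0.033, Srebf1 -0.22, Thrsp -0.98, Agpat2 0.063, Dgat2 -0.067, Lipe -0.34 and Acadm -0.076. With the authors' values they were Acacb -0.016, Srebf1 -0.22, Thrsp -1.08, Agpat2 0.085, Dgat2 -0.039, Lipe -0.36 and Acadm -0.059. With spike-in centring they were Acaca -0.12, Srebf1 -0.13, Thrsp -0.084, Dgat2 -0.043, Lipe -0.0069, Acadm -0.11 and Acaa2 -0.072, and for the mean of probes Acaca -0.22. Without 1 array, the ranges that crossed 0 were Acaca -0.081 to 0.080, Acacb -0.11 to 0.43, Scd1 -1.23 to 0.30, Srebf1 -0.081 to 0.089, Thrsp -0.74 to 1.94, Cd36 -0.67 to 0.048, Acsl4 -0.22 to 0.058, Agpat2 -0.075 to 0.017, Dgat2 -0.11 to 0.54, Lipe -0.027 to 0.31, Mgll -0.18 to 0.48, Acadm -0.094 to 0.089 and Acaa2 -0.040 to 0.12. The cause of these changes was not tested beyond the shift of the all-item median. Signals near background limit Thrsp and Gpam, and the number of arrays limits all genes.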
